A study of Mus musculus with 8 samples.

Results

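Oxidative phosphorylation is the last stage of respiration, in which 4 protein complexes of the inner mitochondrial membrane (I to IV) pass electrons to oxygen and, except for complex II, pump protons, and complex V, the ATP synthase, uses the proton gradient to make ATP. Its subunits are encoded by 2 genomes. Mitochondrial DNA holds core subunits of complexes I, III, IV and V and is read as long transcripts by a polymerase of its own, and all subunits of complex II and most of the others are ordinary nuclear genes whose proteins are imported. The genes described here are the protein-coding genes of the table whose names begin with mt- or mark a nuclear subunit (Nduf, Sdh, Uqcr, Cyc1, Cox4 to Cox8 and Atp5). The rule found 99 of 33971 genes, of which 13 are mitochondrially and 86 nuclear encoded. Ndufa4 and Ndufa4l2 carry complex I names but belong to complex IV and are counted there. Cox5b-ps, by its name a pseudogene of Cox5b, which the table lists as protein coding, and Cox7a2l, which joins complexes III and IV, were kept as the rule gives them.

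The data are bulk RNA sequencing of poly-A RNA from whole brains of wild-type embryos at E14.5, 4 from dams fed a choline-deficient diet (CDD) and 4 from dams fed normal chow (ND). Both parents were wild type, no transgene or other allele is named, and each brain is 1 library. The dams received the deficient diet from the day of mating. Neither the number of dams nor which brains were littermates is stated, so p-values measure the spread between these brains, which may in part be a spread between litters.

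Libraries held 31770217 to 43121170 counts. Markers of neural progenitors and of postmitotic neurons were present in every brain, with summed levels of 2452 to 3034 and 7786 to 8663 CPM (counts scaled to library size), and none of these 28 markers was at 0 in any brain. Across the genome, 19367 genes passed the filter on low counts, and 8.83% of them differed between the diets at an adjusted p under 0.05 in edgeR's quasi-likelihood test, 4.24% higher and 4.59% lower in CDD brains. Brains CDD 2, CDD 4 and ND 4 held 54452 to 58635 counts of Xist, the RNA that coats the inactive X chromosome of female cells, and 0 counts of the Y-linked Ddx3y. The other 5 brains held 6 to 12 counts of Xist and 1570 to 2104 of Ddx3y. The CDD group therefore had 2 brains of each kind and the ND group 1 with Xist RNA and 3 without.

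Part of the mitochondrial genome also exists as a near-identical insertion on chromosome 1, and its annotated pieces had counts of their own in the same table. The following stretches show how alike these pieces are, because they bear on every value of the genes concerned. They were read from the GENCODE M21 transcripts (GRCm38), 5′ to 3′, with the bases that differ between the mitochondrial gene and its chromosome 1 copy in capitals.
mt-Nd3, bases 1 to 90: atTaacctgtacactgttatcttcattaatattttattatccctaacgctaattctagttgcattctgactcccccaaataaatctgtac
Gm28438, bases 1 to 90: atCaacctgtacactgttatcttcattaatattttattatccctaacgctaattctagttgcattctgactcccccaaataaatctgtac
mt-Co1, bases 1054 to 1143: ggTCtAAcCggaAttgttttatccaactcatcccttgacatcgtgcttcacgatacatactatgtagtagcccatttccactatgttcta
Gm29216, bases 1 to 90: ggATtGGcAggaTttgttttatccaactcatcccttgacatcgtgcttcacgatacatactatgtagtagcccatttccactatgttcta
The copy of mt-Nd3, named Gm28438, differed from the gene by the substitution T3C alone over 345 bases (the gene's base first, counted from its 5′ end). The copy of mt-Co1, Gm29216, differed at 6 positions between 1056 and 1066 and was identical over the remaining 479 bases of the gene. The copies of mt-Co2, mt-Atp6, mt-Co3 and mt-Nd4l had 0 differences over 681, 678, 783 and 294 bases, and that of mt-Nd4 had 0 differences over the 876 bases it covers.

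Counted in windows of 50 bases, 98.0% to 100% of the sequence of mt-Nd3, mt-Nd4l, mt-Atp6, mt-Co3 and mt-Co2 occurred in another annotated transcript. The share was 62.2% for mt-Nd4, 51.1% for mt-Co1, 8.19% for mt-Nd2 and 7.61% for mt-Nd5, and it was 0% for mt-Nd1, mt-Nd6, mt-Cytb and mt-Atp8. No annotated copy of mt-Atp8 was found, but the stretch between the copies of its neighbours mt-Co2 and mt-Atp6 is 233 bases long on chromosome 1 against 230 in the mitochondrial genome, and without a genome sequence that stretch was not compared. How reads that match both places were counted is not given in the sources used here.

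The 13 mitochondrial genes fell into 2 levels. FPKM, counts scaled to library size and gene length, allows genes of different length to be compared. On that scale mt-Co1, the catalytic subunit of cytochrome c oxidase, was highest, at a mean of 3147 over the 8 brains, followed by mt-Cytb, the core of complex III, at 2406 and mt-Nd1, a membrane subunit of complex I, at 1772. The complex I subunits mt-Nd2 and mt-Nd4 were at 927 and 924, and their ranges overlapped, as did those of mt-Nd5 (574) and mt-Nd6 (568). mt-Nd6 is the gene on the opposite strand of the mitochondrial genome, and whether counting used strand is not stated.

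**Figure D1:**
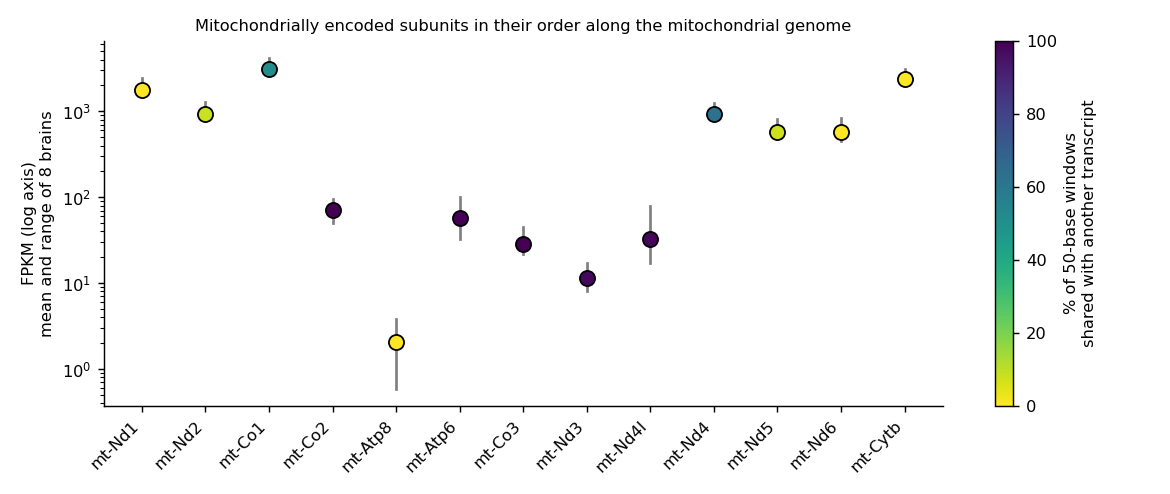
FPKM (log axis) of the 13 mitochondrially encoded subunit genes, from left to right in their order along the mitochondrial genome; points are means over 8 brains, bars the range, and the colour gives the percentage of 50-base windows shared with another annotated transcript. The 6 genes from mt-Co2 to mt-Nd4l lie between 2.06 and 70.5, and the other 7 lie between 568 and 3147.

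The remaining 6 genes, which lie side by side from mt-Co2 to mt-Nd4l, were far lower. Mean FPKM was 70.5 for mt-Co2, 57.0 for mt-Atp6, 32.7 for mt-Nd4l, 28.8 for mt-Co3, 11.3 for mt-Nd3 and 2.06 for mt-Atp8, the lowest of all. In every brain the other 7 genes made up 98.9% to 99.2% of the counts on mitochondrially encoded subunits, and mt-Co1 alone made up 37.4% of those counts over all brains. The chromosome 1 copies had counts of the same order as the low genes. The copy of mt-Co2, for example, was at 26.5 to 46.1 CPM in the 8 brains and mt-Co2 itself at 34.9 to 65.1. The part of read sharing in these low levels was not tested.

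Nuclear subunit genes were, per length, less abundant than the 7 high mitochondrial genes. The highest in complexes V, IV, III and II were Atp5a1, the alpha subunit of the ATP synthase, at a mean FPKM of 203.5, Cox6a1 of complex IV at 192.9, Uqcrfs1, the Rieske iron-sulphur protein of complex III, at 69.7, and Sdhd, a membrane anchor of complex II, at 44.5. Each of these lay below mt-Nd6, the lowest of those 7 genes.

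In whole libraries, the mitochondrial share set CDD 2 and CDD 4 apart from the other 6 brains. The 13 mitochondrial genes took 1.22%, 1.56%, 1.17% and 1.69% of all counts in brains CDD 1 to CDD 4, and 1.23%, 1.14%, 1.19% and 1.22% in ND 1 to ND 4. Counting error was small against these differences, since no 95% Wilson interval was wider than 0.00863 percentage points for this share. CDD 2 and CDD 4 were above all ND brains, and CDD 1 and CDD 3 lay within the ND range. CDD brains averaged 1.41% ± 0.255 (SD, n = 4) and ND brains 1.19% ± 0.0418 (SD, n = 4), a difference smaller than the spread within the CDD group.

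Nuclear subunits did not follow. The 86 nuclear genes took 0.629%, 0.625%, 0.625% and 0.550% of counts in CDD 1 to CDD 4 and 0.639%, 0.616%, 0.629% and 0.619% in ND 1 to ND 4. Brain CDD 4 was below the other 7, which lay together. CDD brains averaged 0.607% ± 0.0383 (SD, n = 4) and ND brains 0.626% ± 0.0104 (SD, n = 4), and without CDD 4 the difference between the diets went from -0.0184 to 0.000753 percentage points.

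The contrast of the 2 genomes in each brain, taken as the log2 ratio of mitochondrial to nuclear subunit counts, was 0.96, 1.32, 0.90 and 1.62 in CDD 1 to CDD 4 and 0.94, 0.89, 0.92 and 0.98 in ND 1 to ND 4. CDD brains averaged 1.2 ± 0.34 (SD, n = 4) and ND brains 0.93 ± 0.04 (SD, n = 4). The ratio was raised in CDD 2 through its mitochondrial counts and in CDD 4 through both terms, and the groups overlapped. These sums over the members were given no test.

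**Figure D2:**
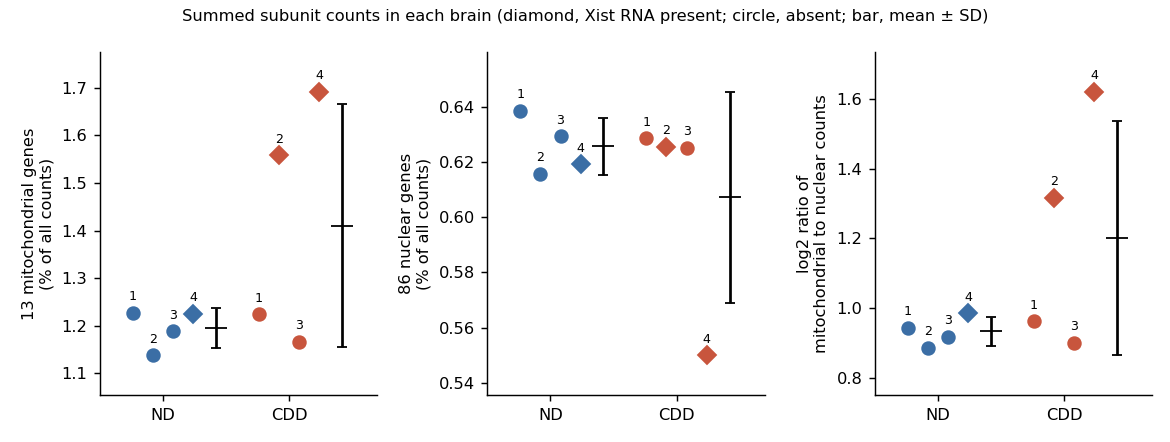
Share of all counts on the 13 mitochondrial (left) and 86 nuclear (middle) subunit genes, in percent, and the log2 ratio of mitochondrial to nuclear counts (right), for each brain by maternal diet, with replicate numbers; the axes do not start at 0. CDD 2 and CDD 4 stand above the ND brains in the left and right panels, and CDD 4 stands below all others in the middle panel, at 0.550%.

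The 2 CDD brains with a high mitochondrial share were the 2 CDD brains with Xist RNA. The ND brain with Xist RNA, ND 4, had a mitochondrial share of 1.22%, inside the range of the other ND brains. Among the 5 brains without Xist RNA, the diets differed by 0.0105 percentage points in mitochondrial share, against 0.216 over all 8. In the log2 ratio they differed by 0.01, against 0.27. These 5 brains leave out both CDD 2 and CDD 4, the brains with the high share. With 1 ND brain that had Xist RNA, embryo sex, litter and the individual brain cannot be told apart in CDD 2 and CDD 4. Mitochondrial ribosomal RNA, which is not part of the sums, took 0.0550%, 0.0686%, 0.0491% and 0.0793% of counts in CDD 1 to CDD 4 and 0.0476% to 0.0611% in ND brains, again highest in CDD 2 and CDD 4.

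Gene by gene, the mitochondrial subunits pointed upward in CDD brains, with 12 of 13 log2 fold changes (CDD over ND) above 0 and a median of 0.31. The quasi-likelihood test of edgeR called 1 of the 13, where 8.83% of all genes tested were called. In all genes tested, the median was -0.00 and 50.9% of fold changes were below 0. Without CDD 4 the median was 0.14, with 10 of 13 above 0. Among the 5 brains without Xist RNA it was 0.01, with 8 of 13 above 0. That set holds neither CDD 2 nor CDD 4, so it cannot separate Xist RNA from these brains. With Xist as a covariate over all 8 brains, the median was 0.21, with 11 of 13 above 0. CDD 4 was the highest of the 8 brains for 10 of the 13, including all 7 abundant genes, where it was highest for 21.7% of all genes tested. For these 7 genes the fold change lay between 0.21 (mt-Cytb) and 0.42 (mt-Nd6), on the log2 scale. The smallest adjusted p among them was that of mt-Nd5, the largest mitochondrially encoded subunit of complex I. It measured 1016, 1293, 969 and 1499 CPM in CDD 1 to CDD 4 and 936, 864, 939 and 895 CPM in ND 1 to ND 4. All CDD brains were above all ND brains, CDD 3 by a small margin, and the log2 fold change of 0.39 ± 0.14 (SE) did not pass the test (adjusted p = 0.132, edgeR). mt-Co1 showed the pattern of most of the others, with 4417, 5905, 4461 and 6440 CPM in CDD brains and 4191 to 4628 CPM in ND brains, so that CDD 2 and CDD 4 were high and the others overlapped.

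The called gene was mt-Nd3, a small membrane subunit of complex I, which the table places on the mitochondrial genome from 9459 to 9806, the same coordinates as in GENCODE M21. It had few counts, 127, 176, 167 and 199 in CDD 1 to CDD 4 and 128, 90, 111 and 107 in ND 1 to ND 4. In CPM these were 3.83, 5.10, 3.88 and 6.002 against 3.74, 2.81, 3.21 and 3.10, so that the lowest CDD brain was just above the highest ND brain. The log2 fold change was 0.54 ± 0.15 (SE), with an adjusted p of 0.0335 in edgeR. The call was lost when CDD 2, CDD 4, ND 2, ND 3 or ND 4 was left out (adjusted p = 0.0797, 0.0976, 0.0877, 0.105 and 0.0958).

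mt-Nd3 is also 1 of the 5 genes whose sequence is almost wholly shared with chromosome 1. Its copy Gm28438 had 47, 54, 47 and 444 counts in CDD 1 to CDD 4 and 39, 419, 32 and 37 in ND 1 to ND 4, so that the copy was high in a brain of each diet. Summed with its copy, mt-Nd3 was at 5.25, 6.66, 4.97 and 19.4 CPM in CDD brains and 4.89, 15.9, 4.13 and 4.17 in ND brains, the groups overlapped, and the log2 fold change was 0.32 ± 0.70 (SE; adjusted p = 0.843, edgeR). The rise of mt-Nd3 is therefore uncertain.

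The other low mitochondrial genes were given by wide errors. mt-Atp6 and mt-Nd4l, of complexes V and I, had log2 fold changes of 0.57 ± 0.33 and 0.53 ± 0.56 (SE). mt-Nd4l was at 23.4 CPM in CDD 4 and at 5.07 to 12.96 CPM in the other 7 brains. mt-Co3 and mt-Co2, core subunits of complex IV, stood at 0.33 ± 0.21 and 0.06 ± 0.28 (SE). mt-Atp8, a small subunit of the ATP synthase, was the gene with a fold change below 0, at -0.85 ± 0.41 (SE) from 4 to 27 counts a brain.

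Of the 86 nuclear subunit genes, 83 passed the filter and 1 was called, which is 1 gene where 8.83% of all genes tested were called. The fold changes were small and mostly below 0, with 66 of 83 below 0 and a median of -0.08. In the 8 brains, CDD 4 was the lowest for 66 of these 83 genes, where it was lowest for 23.7% of all genes tested. With CDD 4 left out, 53 of 83 fold changes were below 0 and the median was -0.02. Among the 5 brains without Xist RNA, which also leave out CDD 4, these were 47 of 83 and -0.01. With Xist as a covariate over all 8 brains, they were 60 of 83 and -0.06. Groups that did not overlap were found for 6 nuclear subunit genes, 3 in each direction, where 15% of all genes tested had no overlap.

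**Figure D3:**
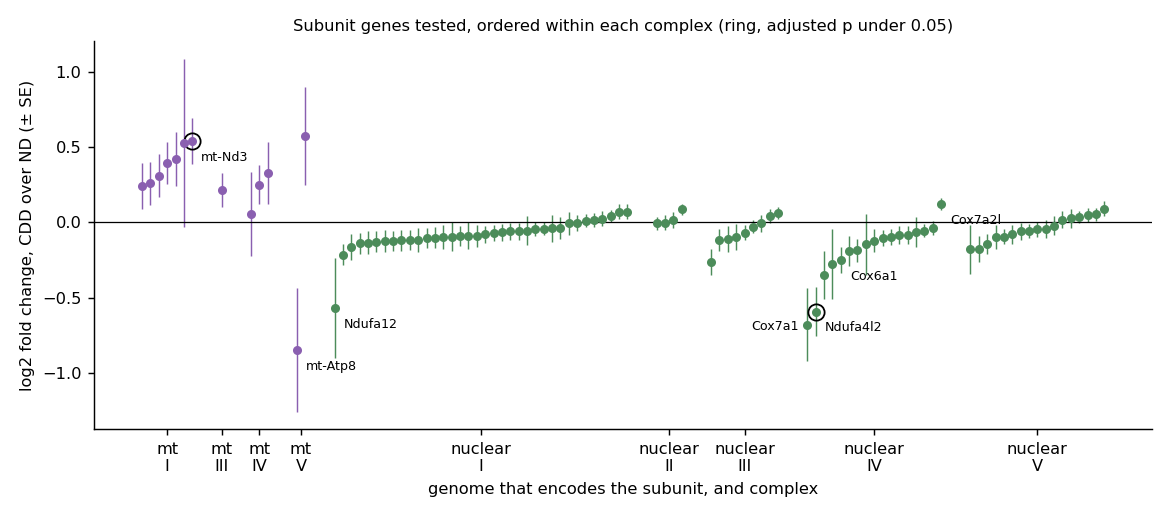
Log2 fold change of CDD over ND with its standard error (edgeR) for the 96 subunit genes tested, grouped by encoding genome and complex and ordered within each group; rings mark an adjusted p under 0.05. The mitochondrial genes lie mostly above 0, with mt-Nd3 ringed at 0.54, and the nuclear genes lie mostly just below 0, with Ndufa4l2 ringed at -0.59.

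Complex I takes electrons from NADH. None of its 36 nuclear subunits passed edgeR's test (1 at an unadjusted p under 0.05, and 1 called by DESeq2), 30 fold changes were below 0 and the median was -0.08. Over all 19367 genes tested, 4627 had an unadjusted p under 0.05 in edgeR and DESeq2 called 2195. The counts of the other complexes stand beside the same values. The 7 core subunits that hold the flavin and iron-sulphur centres or line the quinone path had a median of -0.04, with 3 above 0 and 4 below. The 29 accessory subunits had a median of -0.09, with 26 below 0. Median gene length was 2178 bases for the core and 1217 for the accessory subunits. CDD 4 was the lowest brain for 4 of the 7 core and 27 of the 29 accessory subunits. The part of gene length and of CDD 4 in this contrast was not tested. The accessory subunit Ndufb8, often used as a marker of assembled complex I, was the closest to the threshold. All of its CDD values lay below all ND values, and its log2 fold change was -0.21 ± 0.07 (SE; adjusted p = 0.0599, edgeR). Ndufv2 and Ndufa9, at 0.07 each, were among the 5 largest rises of the nuclear genes and did not pass (adjusted p = 0.427 and 0.417, edgeR).

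Ndufa12, another accessory subunit, had the third lowest fold change of the nuclear genes, -0.57 ± 0.33 (SE), through 2 ND brains. Its level was 14.4, 11.97, 13.1 and 12.4 CPM in CDD 1 to CDD 4 and 30.8, 12.4, 12.4 and 21.2 CPM in ND 1 to ND 4. ND 1 and ND 4 were high, and ND 2 and ND 3 were inside the CDD range. Its annotated pseudogene Ndufa12-ps went the other way in the same brains, at 5.62 and 9.60 CPM in ND 1 and ND 4 against 11.8 to 14.9 in the other 6. Ndufa12 shares 17.7% of its windows with other transcripts, and the part of this sharing was not tested.

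Complex II, succinate dehydrogenase, is the complex with no mitochondrially encoded subunit. None of its 4 genes was called by edgeR or DESeq2 (1 at an unadjusted p under 0.05), and they had fold changes from -0.00 to 0.09. Sdha, the flavoprotein that oxidises succinate, was at 168, 177, 171 and 174 CPM in CDD 1 to CDD 4 and 162, 161, 161 and 167 CPM in ND 1 to ND 4. The CDD brains were all above the ND brains, by little, and the log2 fold change of 0.09 ± 0.04 (SE) did not pass (adjusted p = 0.182, edgeR).

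Complex III passes electrons to cytochrome c. None of its 9 nuclear genes was called by edgeR (1 at an unadjusted p under 0.05, and 1 called by DESeq2), 7 had fold changes below 0 and the median was -0.07. Uqcr11, its smallest subunit, had the lowest, -0.26 ± 0.09 (SE; adjusted p = 0.0757, edgeR), and the groups overlapped. The Rieske protein Uqcrfs1 was at 99.4, 104, 94.2 and 90.04 CPM in CDD brains and 92.7 to 95.9 CPM in ND brains.

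Complex IV, cytochrome c oxidase, held the called nuclear gene and the lowest median of the 5 complexes, -0.12. Of its 17 tested genes, 16 had fold changes below 0. Their median length was 1108 bases, the shortest among the nuclear genes of the 5 complexes, and CDD 4 was the lowest brain for 12. The part of gene length and of CDD 4 in this median was not tested. Of these 17 genes, 6 had an unadjusted p under 0.05 in edgeR, and DESeq2 called 3. Over all 19367 genes tested, these counts were 4627 and 2195. Several subunits of complex IV exist as a common form and a form of particular tissues. Ndufa4l2, the minor relative of Ndufa4 that is known for its induction by low oxygen and its expression in pericytes, lies on chromosome 10. It was at 2.26, 2.64, 3.95 and 3.05 CPM in CDD 1 to CDD 4 and 4.18, 3.72, 5.41 and 4.73 CPM in ND 1 to ND 4. CDD 3 was above ND 2, and the other CDD brains were below all ND brains. It fell by 0.59 on the log2 scale (SE 0.16, adjusted p = 0.0315, edgeR). The call was lost without CDD 1, CDD 2, ND 1, ND 3 or ND 4 (adjusted p from 0.0667 to 0.141). Ndufa4 itself had a log2 fold change of -0.06 ± 0.04 (SE; adjusted p = 0.480, edgeR).

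Cox7a1, known as the heart and muscle form of Cox7a, had the lowest fold change of the nuclear genes at a low level. It was at 0.513, 0.695, 0.534 and 0.814 CPM in CDD 1 to CDD 4 and 0.878, 1.00, 1.01 and 1.19 CPM in ND 1 to ND 4, from 17 to 41 counts a brain. All CDD brains were below all ND brains, but the log2 fold change of -0.68 ± 0.24 (SE) did not pass (adjusted p = 0.0887, edgeR). Cox7a2, the common form, stood at -0.10 ± 0.05 (SE).

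Ndufa4l2 made up 3.66% to 6.27% of the summed FPKM of its pair in CDD brains and 5.92% to 7.98% in ND brains. Cox7a1 made up 1.43% to 2.58% against 2.48% to 3.05%. Cox6b2, the form known from testis, made up 1.32% to 2.49% of its pair, and Cox4i2, a form known from lung, 0.734% to 1.40%, over all 8 brains, with groups that overlapped. The muscle forms Cox6a2 and Cox8b had 2 and 5 counts in all 8 brains together and, with Cox7b2 (9 counts), were the 3 genes that did not pass the filter.

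**Figure D4:**
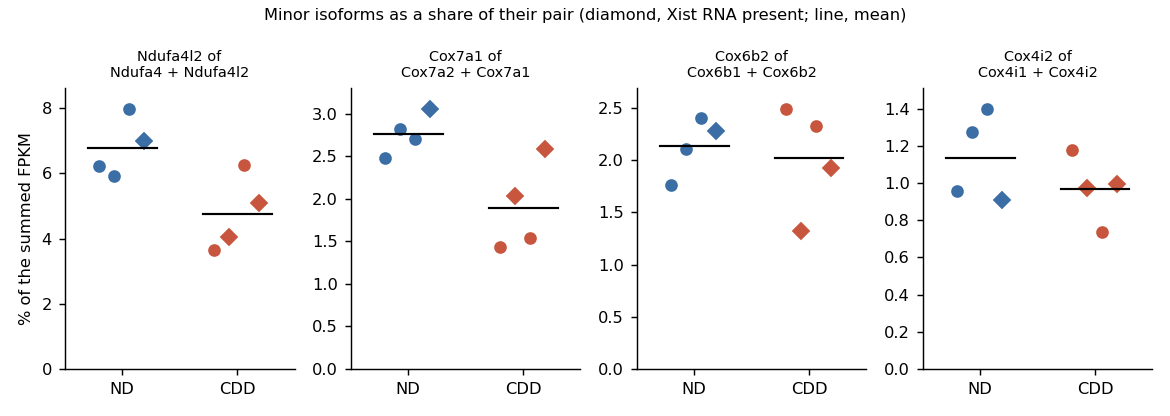
Minor isoform as a percentage of the summed FPKM of its pair, for each brain by diet, with the mean of each group as a line. Ndufa4l2 and Cox7a1 sit lower in CDD brains with an overlap of the groups in each, and Cox6b2 and Cox4i2 overlap more widely.

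Mural cells, the pericytes and smooth muscle cells of vessels, are known to express Ndufa4l2 and Cox4i2. Cox4i2 stood at -0.28 ± 0.23 (SE; adjusted p = 0.517, edgeR). Of 10 mural markers tested, 3 were lower in CDD brains and 1 higher, with a median log2 fold change of -0.22. Over all genes tested, 4.59% were lower and 4.24% higher. Higd1b, a pericyte marker, fell by 0.70, and Rgs5 and Vtn by 0.18 and 0.25, on the log2 scale (adjusted p = 0.0454, 0.0268 and 0.0103, edgeR), and Notch3 rose by 0.17 (adjusted p = 0.0253, edgeR). The mural markers not called had log2 fold changes from -0.25 (Anpep) to -0.00 (Pdgfrb). The 10 markers summed to 311 to 327 CPM in CDD brains and 320 to 342 CPM in ND brains, and none was at 0 in any brain. Their part in the change of Ndufa4l2 was not tested, and in bulk tissue fewer cells of a type and less RNA per cell cannot be told apart.

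Cox6a1, the nuclear subunit of complex IV with the highest FPKM, and Cox5b and Cox8a of the same complex were lowest in CDD 4. Cox6a1 was at 129, 127, 141 and 101 CPM in CDD 1 to CDD 4 and 149, 143, 158 and 142 CPM in ND 1 to ND 4. All CDD brains were below all ND brains, CDD 3 by a small margin, and CDD 4 was far below the rest. The log2 fold change was -0.25 ± 0.09 (SE; adjusted p = 0.119, edgeR). Without CDD 4 the fold change was -0.16 and passed (adjusted p = 0.0256, edgeR). The 390-base Cox5b-ps shares 61.9% of its windows with other transcripts, and its value of -0.35 ± 0.16 (SE) cannot be separated from that of Cox5b, -0.19 ± 0.08.

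Cox7a2l, also called Scaf1, which joins complexes III and IV into supercomplexes, went the other way. It was at 114, 123, 114 and 112 CPM in CDD 1 to CDD 4 and 108, 107, 105 and 104 CPM in ND 1 to ND 4. Every CDD brain was above every ND brain, CDD 2 the most. The log2 fold change was 0.12 ± 0.04 (SE), the largest of the nuclear genes, with an adjusted p of 0.0666 (edgeR).

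Complex V, the ATP synthase, had a median of -0.05, with 11 of its 17 nuclear genes below 0 and none called by edgeR or DESeq2 (1 at an unadjusted p under 0.05). Atp5a1, part of its catalytic head, was at 638, 692, 642 and 675 CPM in CDD 1 to CDD 4 and 617 to 624 CPM in ND brains. All CDD brains were above all ND brains, and the log2 fold change was 0.09 ± 0.05 (SE; adjusted p = 0.245, edgeR). Atp5b, the beta subunit of the head, stood at 0.05, and the central stalk subunits Atp5c1, Atp5d and Atp5e at 0.05, -0.05 and -0.08. The remaining subunits ranged down to -0.18 for Atp5k and Atp5md, small subunits of the membrane part.

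Fold changes of the nuclear subunits were lower in shorter genes, by the gene length listed in the table. Of the 83 genes tested, 45 were in the shortest of 5 equal classes of all genes (27 to 1755 bases), and their median log2 fold change was -0.10, against -0.04 for the 20 members of the next class and -0.03 for the 13 members of the middle class. Spearman's rho between fold change and length was 0.521 across these 83 genes and 0.0830 across all genes tested. The genes share the same libraries and depths, so these values are descriptions.

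CDD 4 showed the widest differences with length. In that brain, all genes of the shortest class lay on average 0.08 log2 units below their mean over the 8 brains, and those of the longest class 0.05 above it. The nuclear subunits of the shortest class lay 0.26 below their mean there. Those of classes 2, 3 and 4 lay 0.14, 0.13 and 0.16 below. Class 4 held 4 subunits, and all genes of that class lay 0.01 below their mean. In the other 7 brains the subunits of the shortest class lay between -0.05 (CDD 2) and 0.11 (ND 3). In each of the first 4 classes, the subunits thus averaged lower in CDD 4 than all genes of that class. When gene length was added to the fit as an offset, 56 of 83 fold changes were below 0 with a median of -0.03. Ndufa4l2 and Cox7a2l were called. The offset also moved all genes tested, whose median went from -0.004 to 0.015 and whose share below 0 went from 50.9% to 46.0%.

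**Figure D5:**
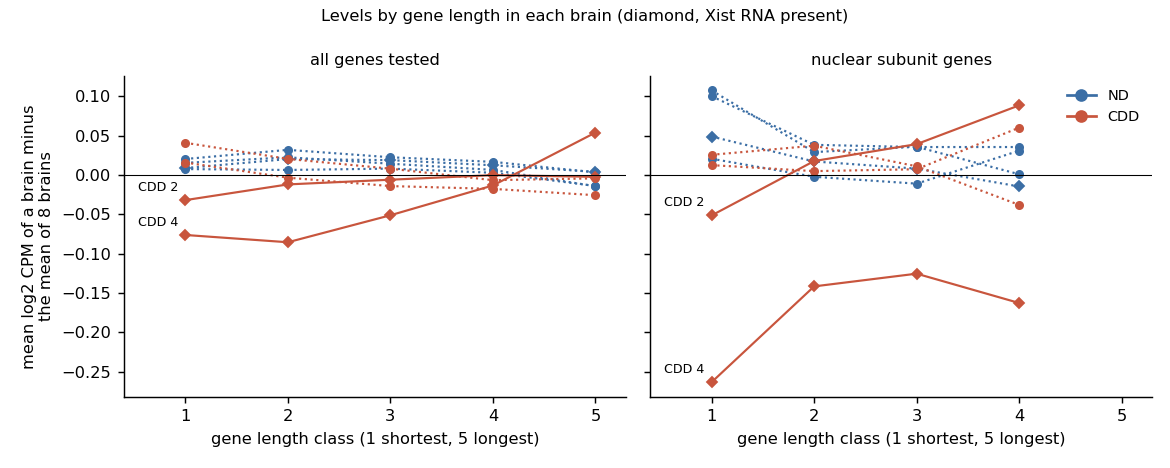
Mean log2 CPM of each brain minus the mean of the 8 brains, by gene length class, for all genes tested (left) and for the nuclear subunit genes (right, classes with at least 4 members); solid lines are CDD 2 and CDD 4. CDD 4 falls to -0.08 in the shortest class on the left and to -0.26 on the right, and the other brains stay between -0.05 and 0.11.

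Some other lists of nuclear genes of mitochondria also averaged lower in CDD 4. Relative to the mean of the 8 brains on the log2 scale, the 83 nuclear subunits averaged -0.20 in CDD 4, 77 mitochondrial ribosomal proteins -0.12, 50 assembly factors of the complexes -0.10, 25 genes of mitochondrial transcription and RNA stability -0.05, and 82 cytosolic ribosomal proteins -0.06. The 14 genes of mitochondrial DNA replication averaged -0.04 there, 19 mitochondrial carriers and other respiratory genes -0.14, 18 of the tricarboxylic acid cycle and pyruvate dehydrogenase -0.02, and 13 nuclear regulators of respiratory genes 0.12. All genes tested averaged -0.08, -0.09 and -0.05 in the 3 shortest length classes of that brain. In CDD 2, the other brain with a high mitochondrial share, the first 5 of these lists averaged -0.01, -0.01, -0.01, -0.00 and 0.04.

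Calls among genes that make and maintain mitochondrial RNA and DNA are given beside the 8.83% called over all genes tested. None of the 25 tested genes of mitochondrial transcription and RNA stability was called by edgeR or DESeq2 (1 at an unadjusted p under 0.05), and their median log2 fold change was 0.01. Tfam, which packages mitochondrial DNA and starts its transcription, stood at 0.07 ± 0.05, Polrmt, the mitochondrial RNA polymerase, at -0.07 ± 0.05, and Lrpprc, which stabilises mitochondrial messages, at 0.05 ± 0.05 (SE). Of 14 genes of mitochondrial DNA replication, Top3a, a topoisomerase, was higher by 0.26 (adjusted p = 0.0324, edgeR), and the helicase Twnk and the polymerase Polg stood at 0.00 and 0.01.

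Of 13 nuclear regulators of respiratory genes, 3 were higher in CDD brains and none lower, against 4.24% and 4.59% of all genes tested. The median of the 13 was 0.12. The 3 were Gabpb2 and Gabpb1, which pair with the ETS factor GABPA, and Sp1, a general activator of GC-rich promoters. Their log2 fold changes were 0.26 ± 0.05, 0.20 ± 0.05 and 0.22 ± 0.05 (SE; adjusted p = 0.00431, 0.0147 and 0.00846, edgeR). Nrf1, an activator of many respiratory genes, stood at 0.12 ± 0.05 and Ppargc1a, a coactivator of mitochondrial biogenesis, at 0.01 ± 0.07 (SE), neither of which passed.

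Among 50 assembly factors tested, Uqcc2 of complex III was lower by 0.25 (SE 0.06, adjusted p = 0.0223, edgeR) and none was higher. None of 18 genes of the tricarboxylic acid cycle and pyruvate dehydrogenase was called by edgeR or DESeq2 (3 at an unadjusted p under 0.05), with a median of -0.00. Of 19 mitochondrial carriers and other respiratory genes, Slc25a5, an ADP/ATP exchanger, was higher by 0.20 (adjusted p = 0.00891, edgeR), and Chchd10, a protein of the intermembrane space, was lower, with a log2 fold change of -0.50 (adjusted p = 0.0135, edgeR). Of 77 mitochondrial ribosomal proteins, 1 was lower and none higher. The counts of these 4 lists stand beside 4.24% higher and 4.59% lower over all genes tested.

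The promoters of nuclear subunits share binding motifs of these regulators. Of the 86 nuclear genes, 69 had a promoter in the RefSeq table (GRCm38.p6, 250 bases before to 50 after the start). On either strand, the NRF1 motif (GCGCA, 1 base of any kind, then GCGC) occurred in 17 of these genes (24.6%) and in 5.19% of all 27025 genes with a promoter. The ETS motif CCGGAAG occurred in 24.6% against 9.93%, and AAGATGG, the YY1 motif, in 15.9% against 7.28%. Cox6a1 and Sdha are printed because they carry several NRF1 matches, shown in capitals, and lay at opposite ends of the fold changes among such genes.
Cox6a1, chr5:115348909-115349208, minus strand: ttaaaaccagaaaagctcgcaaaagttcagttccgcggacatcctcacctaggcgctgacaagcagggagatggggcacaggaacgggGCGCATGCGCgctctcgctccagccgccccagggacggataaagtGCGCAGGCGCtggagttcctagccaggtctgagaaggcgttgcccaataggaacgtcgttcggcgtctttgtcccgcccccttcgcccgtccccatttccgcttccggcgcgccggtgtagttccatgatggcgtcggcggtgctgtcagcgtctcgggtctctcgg
Sdha, chr13:74350191-74350490, minus strand: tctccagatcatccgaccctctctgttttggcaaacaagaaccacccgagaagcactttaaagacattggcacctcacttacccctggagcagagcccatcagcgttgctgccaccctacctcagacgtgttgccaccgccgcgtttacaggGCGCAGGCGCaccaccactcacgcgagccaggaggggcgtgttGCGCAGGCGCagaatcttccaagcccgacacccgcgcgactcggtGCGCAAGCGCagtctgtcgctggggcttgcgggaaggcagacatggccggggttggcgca
The median log2 fold change was -0.06 for the 17 genes with an NRF1 match and -0.07 for the 50 tested genes without. For the ETS motif these medians were -0.08 and -0.07, and for the YY1 motif -0.09 and -0.06 (11 and 56 genes). A match describes the letters of this window and says nothing of whether the factor was bound.

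Markers of the cell types that a whole brain can hold are given here once, since the subunits are expressed in all of them. The counts of called markers in this paragraph stand beside 4.24% higher and 4.59% lower over all genes tested. Of 14 neural progenitor markers, 6 were higher in CDD brains, with a median of 0.21. Of 14 neuronal markers, 3 were lower, with a median of -0.00. The 3 globins of primitive red cells summed to 114 to 222 CPM in CDD brains and 33.3 to 44.99 in ND brains. The 10 markers of the adult globins and other erythroid genes summed to 633 to 1234 CPM in CDD brains and 794 to 2953 in ND brains. Of the 9 tested, none was called, and their median log2 fold change was -0.50. Among 10 markers of microglia and macrophages 2 were lower, among 10 of endothelium 1, and among 8 of meningeal fibroblasts 4 were lower and 1 higher. Muscle markers summed to 10.2 to 11.97 CPM in CDD brains and 10.6 to 12.8 in ND brains, with 2 of 14 at 0 in at least 1 brain. Of the 7 muscle markers tested, none was called, and their median log2 fold change was -0.05. Their part in the level of Cox7a1 was not tested. The 8 choroid plexus markers summed to 243 to 563 CPM in CDD brains and 339 to 376 in ND brains, with Otx2 higher. The 8 markers of hindbrain and spinal cord motor neurons, of which 1 was at 0 in at least 1 brain, summed to 54.9 to 92.1 CPM in CDD brains and 52.4 to 54.5 in ND brains. Of the 7 tested, none was called by edgeR or DESeq2 and 0 had an unadjusted p under 0.05 in edgeR, and they averaged 1.27 above their mean over the 8 brains in CDD 2, on the log2 scale, and -0.32 in CDD 4. The part of cell composition in the values of the subunits was not tested.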

How the data were processed

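The authors deposited raw counts per gene for 8 libraries of poly-A RNA, with a normalized signal (count divided by a size factor) and FPKM made from that signal. The submitters' processing notes name HISAT2 2.0.5, featureCounts 1.5.0-p3 and DESeq2 1.20.0. The genome build, the strand setting and the treatment of multiply matching reads are not given in the sources used here. Columns of the authors' own comparison (fold changes and p-values) were not used, and neither was the normalized signal.

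Counts were filtered with filterByExpr, scaled by TMM and tested with edgeR 4.0.16 in R 4.3.3 (robust quasi-likelihood test, diet as the term, Benjamini-Hochberg over 19367 genes, threshold 0.05). DESeq2 1.42.0 and limma 3.58.1 were alternatives. CPM are TMM-scaled, and standard errors are the fold change divided by the square root of F. FPKM served to compare levels between genes. Shares used all counts of a library as the denominator, with 95% Wilson intervals that cover counting error only. Shared sequence was counted as exact 50-base windows of GENCODE M21 transcripts. All 99 genes matched that annotation by identifier. The 13 mitochondrial genes had the same coordinates there, and 1 of 86 nuclear genes had the same start.

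Counts simulated from these brains for 19103 genes were tested first. Of genes given a log2 change of 0.5, 1 or 1.5, the test called 47 of 65, 61 of 65 and 67 of 68, with 14 false calls. The simulated brains were drawn independently, with no litter and no outlying brain. Changes under 0.5, such as most of those given here, were not simulated. Replicates of a group differed by more than sampling noise (chi-square per degree of freedom 3.76 to 22.7).

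The genes and lists were chosen with earlier results of these data known. Genes were named by a rule: those called, the mitochondrial genes, the 5 largest rises and falls of the nuclear genes, the isoform pairs and the most abundant of each complex. Some of these are not reported here. Ndufb8, Uqcr11, Cox5b, Atp5k, Atp5md and the genes named from other lists without a call were singled out after their values were seen.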

Additional observations from a re-analysis of the deposited data

Results flagged for a closer look

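In 5 of 72 groups of 4 brains examined, 1 brain lay far from the other 3 by Dixon's criterion, which chance alone reaches in about 1 of 20 groups. The nuclear subunit share was 0.550% in CDD 4 against 0.625% to 0.629% in the other CDD brains. mt-Nd4l was at 23.4 CPM in CDD 4 against 6.11 to 8.36 CPM. Cox5b-ps was at 2.56 CPM in CDD 4 against 4.23 to 4.48 CPM. Cox7a2l was at 123 CPM in CDD 2 against 112 to 114 CPM. Ndufa4 was at 74.6 CPM in ND 2 against 78.7 to 79.5 CPM in the other ND brains. Of these 5, 3 were in CDD 4, the brain with the highest mitochondrial share.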

How the results depend on the processing

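Of 19367 genes, 1710 were called, against 477 at an adjusted p under 0.01 and 2774 at 0.1. With a brain left out, 471 to 2495 were called (471, 615 and 688 without ND 3, ND 4 and ND 1). The 2495, of 19664 tested, were called without CDD 3, and 1514 were called without CDD 4. DESeq2 called 2195, and 2374 of 33971 were called without a filter. With the length offset 2073 were called, with Xist as a covariate 1840, and in the 5 brains without Xist RNA 1234. For nuclear subunits the count went from 1 to 5 with DESeq2, 7 without a filter on low counts, 2 with the length offset, 2 with Xist as a covariate, 5 at an adjusted p under 0.1, and 0 at 0.01 or in the 5 brains without Xist RNA (added after seeing the data), with 0 to 7 when a brain was left out (0 without CDD 1, ND 1, ND 3 or ND 4, 3 without CDD 4 and 7 without CDD 3). For mitochondrial subunits it went from 1 to 2 without a filter, and to 0 with Xist as a covariate, with the copies summed (added after seeing the data) or at 0.01, with 0 to 5 when a brain was left out (0 without CDD 2, CDD 4, ND 2, ND 3 or ND 4, and 5 without CDD 3). In the 5 brains without Xist RNA the called mitochondrial gene was mt-Co2, whose log2 fold change turned from 0.06 to -0.52 (adjusted p = 0.0493, edgeR). The difference in mitochondrial share was 0.216 percentage points (0.122 to 0.297 with a brain left out, lowest without CDD 4) and 0.0105 in the brains without Xist RNA, and that in the log2 ratio was 0.27 (0.13 to 0.37) and 0.015. With other denominators, without mt-Co1 or from genes with no shared window, these shares and ratios moved by less than the SD between brains. The nuclear share moved by less than the SD of the CDD brains, 0.0383, in every setting. Without CDD 4, which widens that SD, its diet difference of -0.0184 changed sign and moved by more than the ND SD of 0.0104. The causes of these changes were not tested.

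The replicate numbers were not taken as pairs, since not every correlation of same-numbered deviations was over 0.1 (0.105, -0.133, 0.117 and 0.232, with 3 of 4 CDD brains closest to the ND brain of their number). With the replicate as a block, 1812 genes, 4 nuclear (Cox6a1, Cox8a, Ndufa4l2 and Uqcr11) and 1 mitochondrial subunit gene were called, and with block and length offset 2064, 5 and 1. For the 33 genes named by the rule and tested, 602 values kept direction and side of the threshold, 13 lost a call, 19 gained one, 24 uncalled values changed sign and 1 called value did.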
